A study of Homo sapiens with 6 samples.

Results

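Amino acid transporters of prostate cancer were followed as 9 genes, SLC7A5, SLC7A8, SLC3A2, SLC43A1, SLC43A2, SLC1A4, SLC1A5, SLC38A1 and SLC38A2, taken by symbol from a table of 35554 genes. All 9 were present and all 9 had enough counts to be tested. LNCaP is an established human line from metastatic prostate carcinoma that expresses prostate luminal genes. It was compared with LNCaP-enzaR, an enzalutamide-resistant line derived from it by continuous exposure to enzalutamide, an inhibitor of androgen receptor signaling, and later kept on a lower concentration of that drug. RNA-Seq was performed on 3 biological replicates of each, grown, according to the labels, in flasks to about the same confluence. Neither line carried an engineered allele according to the labels, and the labels do not say whether enzalutamide was in the medium at harvest. A single resistant derivative was sampled, so its p-values measure the spread between flasks of these 2 lines and not the spread between independently selected lines.

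Tumor cells take up essential and conditionally essential amino acids through several transporter families. SLC7A5 (LAT1) and SLC7A8 (LAT2) are exchangers of large neutral amino acids that reach the cell surface only when linked to the glycoprotein SLC3A2 (4F2hc, or CD98), whereas SLC43A1 (LAT3) and SLC43A2 (LAT4) are facilitators of leucine and related amino acids that need no such partner. SLC1A5 (ASCT2) and SLC1A4 (ASCT1) are sodium-dependent exchangers of small neutral amino acids, the former carrying glutamine, and SLC38A1 (SNAT1) and SLC38A2 (SNAT2) are sodium-coupled importers of glutamine and alanine. Leucine that enters through these SLC7 and SLC43 carriers is sensed upstream of mTORC1, the kinase complex that couples nutrients to growth.

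Of these transporters 3, a glutamine carrier and both a heteromeric and a facilitative leucine carrier, were lower in LNCaP-enzaR past both an adjusted p limit and a fold limit, and 0 were higher past the same limits. SLC1A5 fell 46.4-fold, SLC43A1 fell 9.55-fold and SLC7A5 fell 4.53-fold. SLC38A1, SLC7A8 and SLC3A2 were also lower by more than the spread between flasks, but by amounts under the required fold of 1.5, SLC43A2 was higher by 1.33-fold, and the levels of SLC38A2 and SLC1A4 overlapped between the lines. A gene was called when its Benjamini-Hochberg adjusted p in edgeR's quasi-likelihood test was at most 0.05 and its fold change was at least 1.5 either way.

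The bases just before the start of the 3 genes that fell are shown because these genes carry the largest differences of the 9 and their windows differ in whether they hold an E-box. Each run is the 250 bases upstream of a RefSeq transcript start in GRCh38.p14, read on the minus strand, on which all 3 genes lie. Capitals mark CACGTG, the palindromic E-box hexamer that reads the same on both strands.
SLC1A5, chr19:46788595-46788844: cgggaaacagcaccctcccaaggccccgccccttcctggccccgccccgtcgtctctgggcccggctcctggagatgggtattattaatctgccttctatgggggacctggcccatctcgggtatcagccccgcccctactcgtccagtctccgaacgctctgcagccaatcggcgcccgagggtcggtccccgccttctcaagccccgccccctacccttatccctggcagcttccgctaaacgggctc
SLC43A1, chr11:57515703-57515952: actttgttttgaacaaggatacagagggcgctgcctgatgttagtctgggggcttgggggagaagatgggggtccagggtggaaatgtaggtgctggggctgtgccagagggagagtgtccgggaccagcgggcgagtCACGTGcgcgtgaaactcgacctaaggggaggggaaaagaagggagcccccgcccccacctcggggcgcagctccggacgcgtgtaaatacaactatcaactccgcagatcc
SLC7A5, chr16:87869508-87869757: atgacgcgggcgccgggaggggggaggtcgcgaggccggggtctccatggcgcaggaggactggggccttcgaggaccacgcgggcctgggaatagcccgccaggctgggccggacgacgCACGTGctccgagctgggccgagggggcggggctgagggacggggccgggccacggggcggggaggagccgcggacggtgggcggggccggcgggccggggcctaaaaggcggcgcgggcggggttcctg
The hexamer was present in the SLC43A1 and SLC7A5 windows, and these letters were not in the SLC1A5 window shown, although 1 of the 3 windows RefSeq gives for SLC1A5 held them. Each searched window ran from 250 bases before to 50 bases after a start. SLC7A8, which was not called, also held the hexamer in 1 of its 4 windows, and the other 5 genes had no match. In all, 4 of the 9 genes, which have 21 windows between them, held it in some window, against 8.77% of all 27305 genes and 7.26% of all 35116 windows. TGATGNAA, the amino acid response element that ATF4 dimers recognize, was searched on both strands and was in 1 window each of SLC1A4, SLC1A5, SLC38A1 and SLC3A2, against 4.46% of all genes and 3.62% of all windows. AGAACA, the core of a steroid receptor site, searched on both strands, was in a window of SLC38A1 alone among the 9 genes, against 17.5% of all genes and 14.8% of all windows. None of the 3 motifs contains another. These 9 genes have more windows per gene than all genes do, so a match in some window is likelier for them. No difference in these shares was tested. A match describes letters and not binding.

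Depth was similar among libraries, from 77759122 to 98616465 counts, at which 3 counts equal 0.0302 to 0.0382 counts per 1000000 (CPM). All 8 prostate luminal markers exceeded 10 CPM in all 6 libraries, with a summed level of 4123 to 4216 CPM in LNCaP and 3122 to 3283 CPM in LNCaP-enzaR. Of these 8 markers 2 rose and 4 fell, from KRT8 at 1.16 to KLK3 at -3.08 on the log2 scale. Summed fibroblast markers were 14.7 to 17.9 CPM and 8.21 to 8.95 CPM, a sum carried by COL1A1, which fell from 13.4 to 4.29 CPM, while LUM (0.425 to 1.45 CPM) and PDGFRB (0.641 to 1.73 CPM) rose. Summed basal epithelial markers stayed at or below 1.71 CPM. Mitochondrially encoded genes took 6.72% to 7.06% of counts in LNCaP and 14.7% to 15.5% in LNCaP-enzaR, and the call for each of the 9 transporters was the same with these genes left out. In bulk RNA, fewer cells that express a gene and less of its RNA per cell cannot be told apart. Across all 19711 genes tested, 42.7% were called, 19.5% lower and 23.3% higher, so 3 called of 9 transporters is not above the background. Among the 10769 genes that averaged 5 CPM or more, to which all 9 transporters belong, 38.1% were called. The median log2 fold change of the 9 genes was -0.32, against 0.01 over all genes tested.

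**Figure D1:**
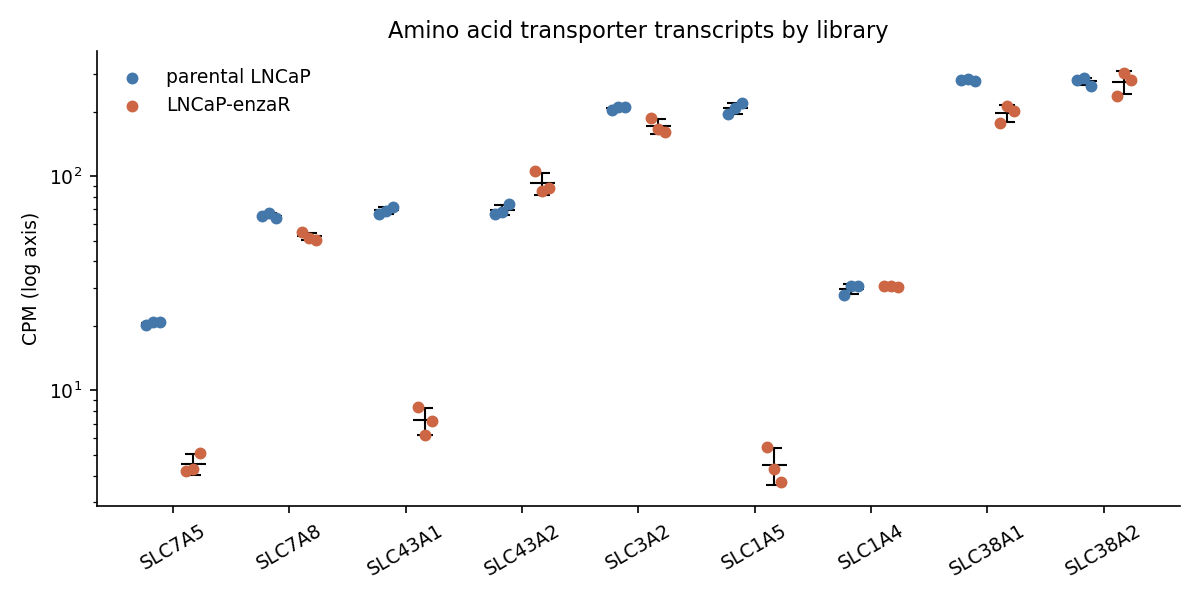
CPM on a log axis for the 9 transporter genes in each library, 3 of parental LNCaP (blue) and 3 of LNCaP-enzaR (orange), with horizontal marks at the group mean and bars of 1 SD. SLC7A5, SLC43A1 and SLC1A5 show the wide gaps between groups, and the points of SLC1A4 and SLC38A2 overlap.

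SLC7A5, on chromosome 16 (87830023 to 87869507, minus strand, GRCh38), encodes the leucine exchanger LAT1. Its level was 20.1, 20.8 and 20.9 CPM in the parental flasks and 4.20, 4.31 and 5.10 CPM in the LNCaP-enzaR flasks. The parental flasks lay close together and every resistant flask was far below them. The mean changed from 20.6 ± 0.428 to 4.54 ± 0.491 CPM (SD over 3 flasks), which is -2.18 on the log2 scale (SE 0.0917, 95% interval -2.38 to -1.98, adjusted p = 5.44e-11 in edgeR's quasi-likelihood test). Of its 100-base exonic stretches 5.42% also occur in other annotated genes, including the pseudogene SLC7A5P2, and 5.69% of its exonic bases overlap other genes' exons. A small part of its reads could therefore have been divided among genes.

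SLC7A8, on chromosome 14 (23125295 to 23183674), encodes LAT2, the exchanger that shares the heavy chain with LAT1. It measured 65.4, 67.3 and 63.9 CPM in parental LNCaP and 54.8, 51.7 and 50.6 CPM in LNCaP-enzaR. The groups did not overlap, but the difference was small beside that of SLC7A5. Its log2 fold change was -0.32 (SE 0.059, 95% interval -0.45 to -0.20, adjusted p = 0.000229), under the fold limit. For this gene 2.75% of the 100-base exonic stretches also occur in another gene, and 4.62% of exonic bases overlap other genes' exons.

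SLC3A2, on chromosome 11 (62856004 to 62888880), encodes the heavy chain that carries both exchangers to the membrane. Its level was 204, 211 and 211 CPM in parental flasks and 187, 165 and 161 CPM in resistant flasks. The resistant flask 1 stood closest to the parental range, and the groups did not overlap. The log2 fold change was -0.29 (SE 0.0615, 95% interval -0.42 to -0.15, adjusted p = 0.000907), also under the fold limit.

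The light chain SLC7A5 changed within the same libraries relative to its heavy chain SLC3A2 and to SLC7A8, another light chain of SLC3A2. The log2 ratio of SLC7A5 to SLC3A2 counts was -3.34 ± 0.00219 in LNCaP and -5.24 ± 0.249 in the resistant line (SD over 3 libraries), a 3.73-fold lower ratio. The log2 ratio of SLC7A5 to SLC7A8 went from -1.67 ± 0.048 to -3.53 ± 0.202. Neither ratio overlapped between the lines, and each gave p = 0.10 in a two-sided exact permutation test, the smallest that 3 against 3 libraries can give, with an adjusted p of 0.10 over the 6 ratios computed. A ratio within a library does not depend on how libraries were scaled, and the change in a ratio does not depend on gene length.

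SLC43A1, on chromosome 11 (57484534 to 57515780, minus strand), encodes the facilitator LAT3, which also bears the name POV1 from its expression in prostate cancer. Its level was 66.4, 69.2 and 72.1 CPM in parental LNCaP and 8.32, 6.22 and 7.20 CPM in LNCaP-enzaR. All resistant flasks were far under all parental flasks. The mean went from 69.2 ± 2.85 to 7.24 ± 1.05 CPM, or -3.26 on the log2 scale (SE 0.0941, 95% interval -3.46 to -3.05, adjusted p = 1.30e-12).

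SLC43A2, on chromosome 17 (1569268 to 1628886), encodes the related facilitator LAT4 and was the one gene of the 9 that was higher with a non-overlapping range. It measured 66.7, 68.1 and 74.0 CPM in parental flasks and 105.5, 85.1 and 87.8 CPM in resistant flasks, of which flask 1 stood above the other two. The log2 fold change was 0.42 (SE 0.0789, 95% interval 0.25 to 0.59, adjusted p = 0.000318), under the fold limit.

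The SLC43 facilitators differed in opposite directions, SLC43A2 by less than the fold limit. Their log2 ratio, SLC43A1 over SLC43A2, was -0.0061, 0.023 and -0.037 in the parental libraries and -3.66, -3.77 and -3.61 in the resistant libraries. The pair was near parity in counts in LNCaP and 12.8-fold below that ratio in LNCaP-enzaR (p = 0.10, exact permutation test, the smallest possible). SLC7A5 was lower by less than SLC43A1, and their log2 ratio changed from -1.75 ± 0.0359 to -0.67 ± 0.275, with no overlap and the same p.

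SLC1A5, on chromosome 19 (46774883 to 46788594, minus strand), encodes ASCT2, a main route of glutamine into tumor cells, and showed the widest difference of the 9 genes. Its counts were 18038, 19025 and 17197 in LNCaP and 471, 378 and 369 in LNCaP-enzaR, or 195, 209 and 219 CPM against 5.46, 4.28 and 3.72 CPM. The resistant flasks kept 2.15% of the parental level and no flask was intermediate. The mean went from 207.7 ± 12.1 to 4.49 ± 0.888 CPM, or -5.54 on the log2 scale (SE 0.114, 95% interval -5.78 to -5.29, adjusted p = 4.53e-14). A log2 fold change this low or lower was seen in 26 genes that averaged 5 CPM or more, SLC1A5 included. Of its exonic bases 23.8% overlap exons on the plus strand, nearly all of them of an antisense RNA, CTB-147N14.6, at 46787815 to 46789043. That RNA had 57, 39 and 55 counts in parental libraries and 0, 6 and 3 in resistant ones (adjusted p = 3.96e-05). Whether the counting used strand was not given in the sources used here, so reads in the shared bases cannot be assigned with certainty.

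SLC1A4, on chromosome 2 (64988477 to 65023865), encodes the close relative ASCT1 and did not show this difference. It measured 27.9, 30.6 and 30.9 CPM in parental flasks and 30.8, 30.7 and 30.3 CPM in resistant flasks, which overlap. On the log2 scale the difference was 0.04 (SE 0.0659, adjusted p = 0.632) with a 95% interval of -0.10 to 0.18, inside the fold limit. The log2 ratio of SLC1A5 to SLC1A4 counts went from 2.80 ± 0.028 to -2.79 ± 0.268, with no overlap (p = 0.10, exact permutation test).

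SLC38A1, on chromosome 12 (46183063 to 46270017), encodes the glutamine importer SNAT1. It was at 282, 285 and 277 CPM in LNCaP and 178, 213 and 201 CPM in LNCaP-enzaR. The groups did not overlap, and the resistant flasks varied more among themselves than the parental ones. Its log2 fold change of -0.51 (SE 0.0641, 95% interval -0.65 to -0.38, adjusted p = 6.26e-06) corresponded to 1.43-fold and did not reach the limit.

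SLC38A2, the neighboring gene on chromosome 12 (46358188 to 46372773), encodes SNAT2, the system A transporter that cells induce when starved of amino acids. It was at 282, 286 and 265 CPM in LNCaP and 238, 304 and 283 CPM in LNCaP-enzaR, so the resistant range enclosed the parental one. The log2 fold change was -0.02 (SE 0.0765, 95% interval -0.18 to 0.15, adjusted p = 0.874). Resistant flask 1 was the lowest of its group for both SLC38 genes, and their log2 ratio, which was 0.019 ± 0.0407 in LNCaP, was -0.48 ± 0.0493 in LNCaP-enzaR without overlap (p = 0.10, exact permutation test).

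Without the fold limit, 7 of the 9 genes passed on adjusted p alone, against 66.3% of all genes tested, and in 7 of 9 the CPM of the lines did not overlap, against 70.6%. Both counts sit near their backgrounds, and SLC1A5, SLC43A1 and SLC7A5 stand apart from the other 6 genes in the size of their difference.

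**Figure D2:**
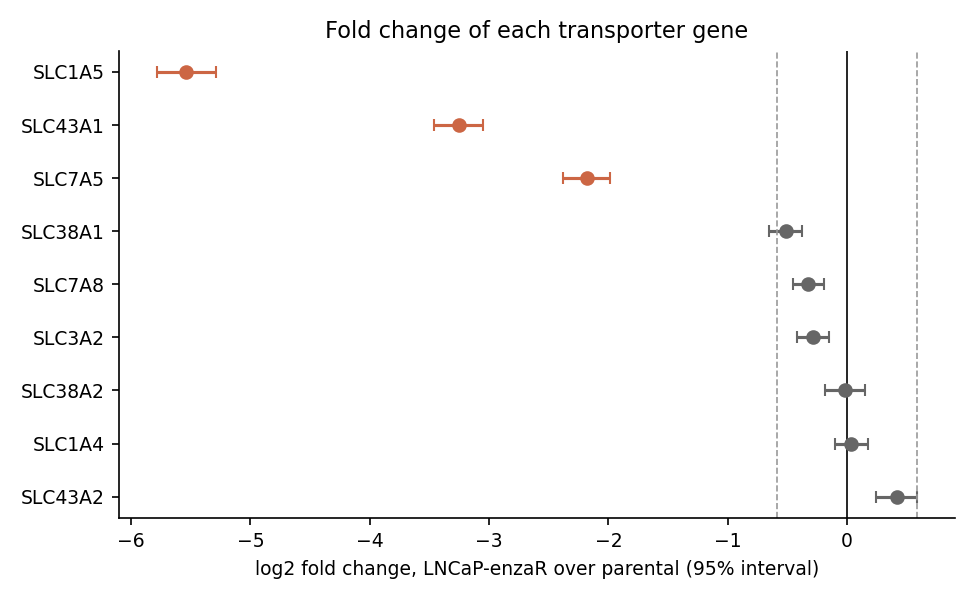
Log2 fold change of each transporter gene, LNCaP-enzaR over parental LNCaP, with 95% intervals from the edgeR fit over 6 libraries. Dashed lines mark a fold of 1.5 either way, and only SLC1A5, SLC43A1 and SLC7A5 (orange) lie past them with adjusted p at most 0.05.

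To set the genes against each other, CPM was divided by exonic length in kb. In parental LNCaP the highest level was that of SLC1A5, at 62.3 ± 3.63 CPM per kb (SD, n = 3), followed by SLC38A2 at 42.7 ± 1.76, SLC3A2 at 32.6 ± 0.644 and SLC38A1 at 28.1 ± 0.404. SLC43A1 came next at 19.6 ± 0.81 CPM per kb, then SLC7A8 at 10.9 ± 0.284 and SLC43A2 at 6.56 ± 0.366. SLC7A5 at 4.32 ± 0.0899 and SLC1A4 at 4.29 ± 0.238 CPM per kb were last, and these neighbors in the order had overlapping ranges.

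In LNCaP-enzaR the order was headed by SLC38A2 at 42.2 ± 5.2 CPM per kb, with SLC3A2 at 26.8 ± 2.16 and SLC38A1 at 19.7 ± 1.78 behind it. SLC43A2 at 8.75 ± 1.04 and SLC7A8 at 8.74 ± 0.36 CPM per kb overlapped, and SLC1A4 followed at 4.41 ± 0.0421. SLC43A1 at 2.05 ± 0.299, SLC1A5 at 1.35 ± 0.266 and SLC7A5 at 0.952 ± 0.103 CPM per kb closed the list. SLC1A5 thus moved from rank 1 to rank 8 of 9. With the longest transcript in place of all exons, SLC3A2 took rank 1 in both lines, since its annotation holds 41 transcripts and much exonic sequence that is not shared among them.

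The summed length-scaled level of the 9 genes was 206, 214 and 214 CPM per kb in LNCaP. It was 112, 119 and 114 CPM per kb in LNCaP-enzaR, 54.4% of the parental mean. The 9 genes were chosen with earlier results of these data known, so no test of this sum is given. SLC1A5 made up 29.5% ± 1.18 of that sum in LNCaP and 1.18% ± 0.256 in LNCaP-enzaR. Among the 4 leucine carriers SLC7A5, SLC7A8, SLC43A1 and SLC43A2, the share of SLC43A1 went from 47.4% ± 0.72 to 9.99% ± 0.763, while SLC7A8 came to 42.7% ± 1.86 and SLC43A2 to 42.6% ± 1.69 in the resistant line. Among SLC1A4, SLC1A5, SLC38A1 and SLC38A2, SLC1A5 held 45.3% ± 1.92 in LNCaP and 2.03% ± 0.601 in LNCaP-enzaR, and SLC38A2 went from 31.1% ± 1.54 to 62.3% ± 1.55. A share rises when another member of the sum is lower, so these describe composition and not the change of each gene.

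**Figure D3:**
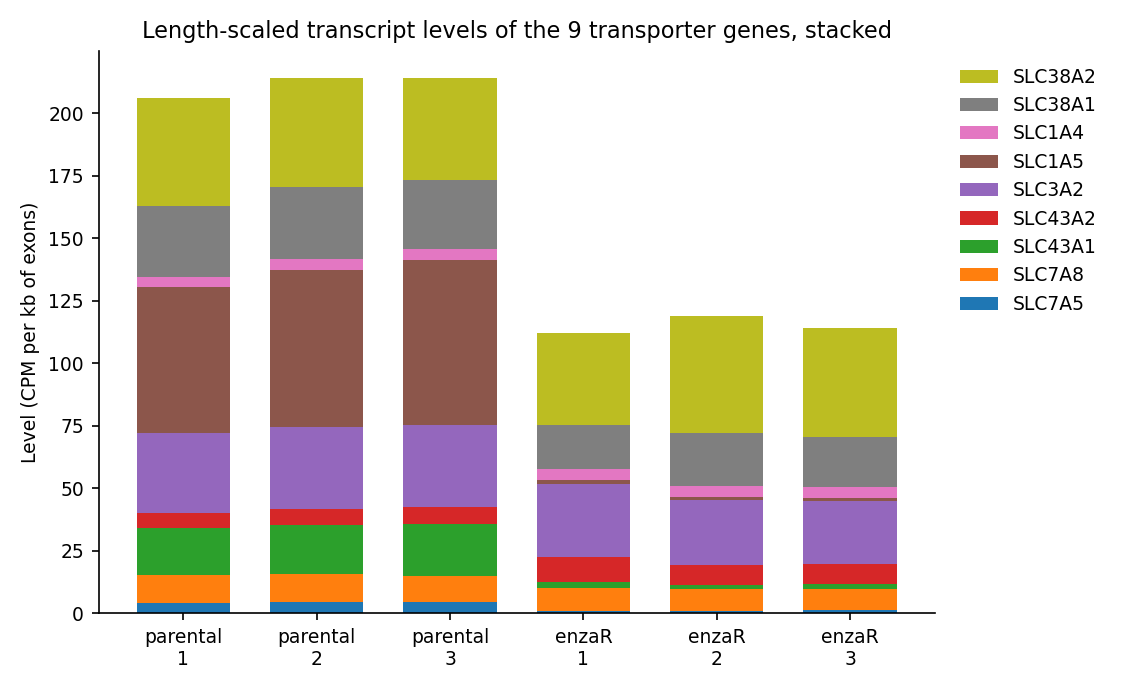
Stacked length-scaled levels (CPM per kb of exons) of the 9 transporter genes in each library, with parental LNCaP at the left and LNCaP-enzaR at the right. The stack is 206 to 214 CPM per kb in the parental libraries and 112 to 119 in the resistant ones, and the SLC1A5 and SLC43A1 layers nearly vanish.

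The genes around the 3 that fell were examined in windows of 500 kb to either side, among protein-coding genes with a mean of at least 1 CPM. Around SLC1A5, 14 genes were tested, of which 1 fell and 3 rose, and the lowest log2 fold change was -0.65. AP2S1, a neighbor at -0.05, was not called. Around SLC7A5, 4 genes were tested, 0 fell and 1 rose, with KLHDC4 at -0.07 and BANP at 0.04. Around SLC43A1, 6 of 11 genes fell and 0 rose, among them TIMM10, a mitochondrial import chaperone, at -1.48, and the lowest was UBE2L6, a ubiquitin-like conjugating enzyme, at -1.65. SLC43A1 itself was lower than every gene in its window. Over all genes 19.5% fell and 23.3% rose, and the difference between the windows was not tested. On chromosome 12, SLC38A4, the amino acid transporter gene beyond SLC38A2, fell from 3.93 ± 0.344 to 0.092 ± 0.0612 CPM (log2 fold change -5.36, adjusted p = 5.74e-10), although SLC38A2 between it and SLC38A1 overlapped between lines. Beside the remaining genes, CEP68 next to SLC1A4 rose (log2 fold change 1.23), WDR74 next to SLC3A2 fell (-0.80), and RNF212B next to SLC7A8 and SCARF1 next to SLC43A2, both under 1 CPM in all libraries, rose by 2.12 and 0.98. The nearest genes on their other sides, and RTN4RL2 next to SLC43A1 at 0.11, were not called, with SERTAD2 at 0.58, CHRM1 at -0.80, C14orf119 at 0.10, PITPNA at 0.15 and SCAF11 next to SLC38A1 at -0.41.

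**Figure D4:**
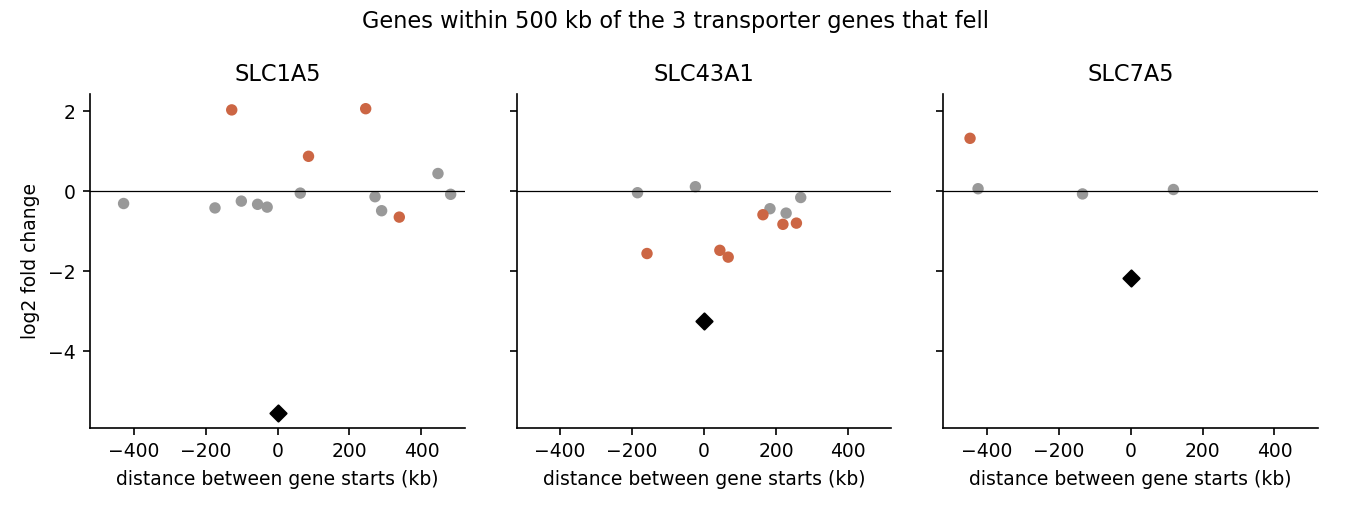
Log2 fold change (LNCaP-enzaR over parental LNCaP) against the distance in kb from SLC1A5, SLC43A1 and SLC7A5 (black diamonds) for protein-coding genes within 500 kb, measured between the lower coordinates of the genes. Orange points were called, 4 of 14 around SLC1A5, 6 of 11 around SLC43A1 and 1 of 4 around SLC7A5, and in each panel the diamond lies below every point.

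The genes whose pattern over the 6 libraries was most like that of SLC1A5 were sought by the mean absolute difference of log2 CPM after centering each gene on its own mean. Among 10768 other genes that averaged 5 CPM or more, the closest were AGR2, a protein disulfide isomerase of secretory epithelia, with a difference of 0.139, ASRGL1, an asparaginase-like enzyme, with 0.171, and SLITRK3, a neuronal adhesion protein, with 0.197. Their log2 fold changes were -5.53, -5.48 and -5.95, values near that of SLC1A5 because of how the genes were chosen.

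Other transporters of amino acids were taken as 4 lists. Of 27 tested, 7 rose and 8 fell, 55.6% in all beside 42.7% of all genes. SLC7A2, a cationic amino acid transporter, fell from 78.7 ± 1.37 to 1.44 ± 0.239 CPM (log2 fold change -5.77, adjusted p = 1.01e-14), and among the 7 tested heteromeric and cationic transporters 3 fell and 1 rose. SLC7A11, the cystine-glutamate exchanger that uses the same heavy chain SLC3A2 as LAT1, fell from 257 ± 3.84 to 52.3 ± 7.95 CPM (log2 fold change -2.30, adjusted p = 2.26e-11).

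Transporters of other families rose as well as fell. SLC6A19, the sodium-dependent neutral amino acid transporter of intestinal and renal epithelium, rose from 2.84, 2.11 and 3.42 CPM to 51.7, 43.6 and 49.4 CPM (log2 fold change 4.12, adjusted p = 3.61e-12). The glutamate and aspartate transporter SLC1A1 rose from 7.44 ± 1.28 to 29.7 ± 1.83 CPM (log2 fold change 2.00, adjusted p = 6.55e-10). With it, 2 of the 3 tested SLC1 genes outside SLC1A4 and SLC1A5 rose, the other being SLC1A2, which was scarce, at 0.337 and 1.79 CPM. SLC38A9, the lysosomal arginine transporter that signals to mTORC1, rose from 14.3 ± 0.652 to 33.0 ± 1.45 CPM (log2 fold change 1.21, adjusted p = 1.86e-09). With it counted, 2 rose and 2 fell of the 7 tested SLC38 genes outside SLC38A1 and SLC38A2. Of the 3 that averaged 5 CPM or more, 1 rose and 0 fell. SLC38A3, 1 of the 2 that fell, overlapped between the lines. SLC36A4, a proton-assisted family member, fell from 12.0 ± 0.201 to 5.08 ± 0.525 CPM (log2 fold change -1.24, adjusted p = 4.08e-08). Of the 10 tested plasma membrane and lysosomal transporters, 2 rose and 3 fell. The shares called were 66.7% of these SLC1 genes, 57.1% of these SLC38 genes and 50% of these 10 transporters. Over all genes 42.7% were called, 19.5% lower and 23.3% higher. These lists are short, and no difference in share was tested.

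Of 38 genes listed around amino acid sensing and mTORC1, 7 rose and 1 fell, 21.1% in all beside 42.7% of all genes. The list also held genes that do not sense amino acids, among them MTOR, RPTOR and MLST8 of the complex itself. RHEB, TSC1, TSC2 and TBC1D7 were others, and none of those named here was called. RRAGB, one of the Rag GTPases, rose from 10.1 ± 0.905 to 29.0 ± 2.01 CPM (log2 fold change 1.52, adjusted p = 1.13e-09), and FNIP2, a partner of folliculin in Rag regulation, fell from 53.3 ± 1.6 to 8.36 ± 0.467 CPM (log2 fold change -2.67, adjusted p = 7.01e-13). The median of this list was 0.20.

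Of 30 genes of ATF4 and the response to amino acid shortage, a list that shares SLC7A11 and SLC7A1 with the transporter lists, 2 rose and 10 fell, with a median of -0.50. The share called, 40%, was near the background of 42.7%. The direction of the calls was not, since over all genes 19.5% fell and 23.3% rose. That difference in direction was not tested. SLC7A11 had the lowest value of the list, and ATF3, a stress-induced transcription factor, rose from 26.4 ± 1.71 to 43.6 ± 1.85 CPM (log2 fold change 0.72, adjusted p = 3.86e-07). Among those that fell were PHGDH, the first enzyme of serine synthesis, at -1.38, and SLC7A1, the arginine transporter CAT1, at -1.04, both named after their values were seen.

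Of 22 genes of glutamine and glutamate metabolism, 4 rose and 6 fell, and the 45.5% called was near the same background. GLUL, which makes glutamine from glutamate, fell from 159 ± 3.35 to 58.1 ± 0.95 CPM (log2 fold change -1.45, adjusted p = 1.42e-11), and the alanine transaminase GPT rose from 2.10 ± 0.414 to 9.35 ± 2.1 CPM (log2 fold change 2.15, adjusted p = 5.69e-08).

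Of 26 genes of branched-chain amino acid breakdown, 7 rose and 2 fell, 34.6% in all beside 42.7% of all genes, with a median of 0.21. HMGCS1, which fell from 169 ± 14.7 to 81.7 ± 1.36 CPM (log2 fold change -1.05, adjusted p = 3.38e-09), is the cytosolic synthase known for sterol synthesis and not for leucine breakdown. The other gene that fell, BCAT1, the cytosolic branched-chain transaminase, was scarce, at 0.77 ± 0.137 and 0.0223 ± 0.0199 CPM. Of 20 cytosolic aminoacyl-tRNA synthetases 0 rose and 3 fell, 15% in all beside the same background, the lowest being FARSB, a subunit of the phenylalanine enzyme, at 171 ± 9.12 and 84.1 ± 5.95 CPM (log2 fold change -1.02, adjusted p = 4.53e-09).

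**Figure D5:**
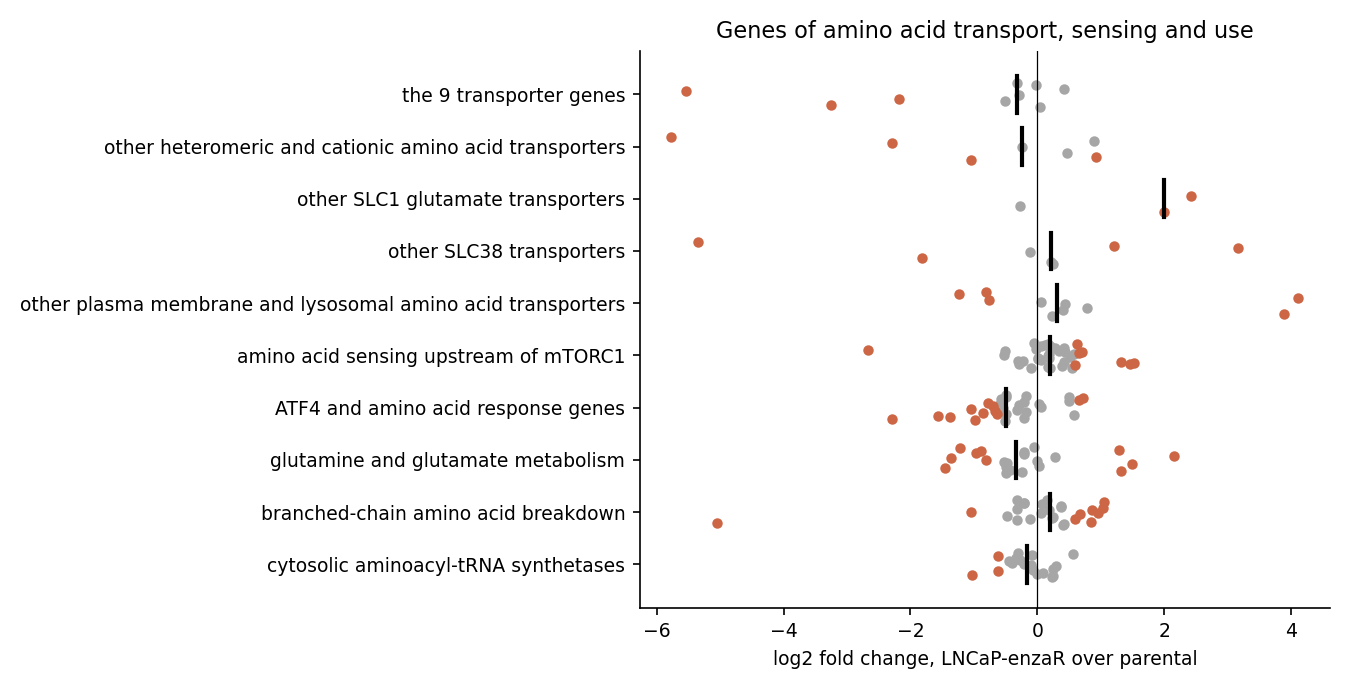
Log2 fold change (LNCaP-enzaR over parental LNCaP) of each tested gene in the 9 transporter genes and 9 lists of related genes, with called genes in orange, others in grey and a black bar at each list's median. In 3 of the 4 other transporter lists called genes lie on both sides of 0, and the mTORC1 sensing and tRNA synthetase lists hold few called genes (21.1% and 15%).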

How the data were processed

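RNA from 3 flasks each of LNCaP and LNCaP-enzaR was sequenced from TruSeq mRNA libraries as 150-base read pairs. Per the study's methods and processing notes, the authors trimmed reads with Cutadapt 4.5, aligned them to GRCh38.p13 with STAR 2.7.11a under Gencode v38, and counted reads per gene with featureCounts 2.0.2. The deposited values are raw counts, and how strand and reads mapping to several places were treated is not given in the sources used here.

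Groups and replicate numbers came from the sample labels. Counts were tested with edgeR 4.0.16 in R 4.3.3 (TMM scaling, filterByExpr, robust quasi-likelihood F-test, Benjamini-Hochberg over 19711 genes), which kept 99.96% of counts. DESeq2 1.42.0, other scalings, filters and fold limits, a replicate block and the omission of each library were alternatives. CPM used TMM-scaled totals. The SE is the absolute log2 fold change divided by the square root of F, and intervals use the fit's degrees of freedom. Ratios took 0.5 added to each count as an alternative and were compared by two-sided exact permutation tests. Exonic lengths and overlaps came from Gencode v44, in which all 9 genes keep their coordinates, and start sites from RefSeq on GRCh38.p14. The fit was tested on simulated data.

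The members and lists were chosen with earlier results of these data known. Text names the 9 genes and the nearest tested protein-coding gene on each side of each, from each list the genes with the highest and lowest log2 fold change among those called with mean CPM of at least 5 and groups that do not overlap, and the 3 genes most like the member with the largest change. UBE2L6 and BCAT1 lie outside that rule, and were chosen after their values were seen, as were the genes so marked in the text. SLC1A2, SLC38A3, the marker genes, CTB-147N14.6, SLC7A5P2, MTOR, RPTOR, MLST8, RHEB, TSC1, TSC2 and TBC1D7 also lie outside that rule. A few genes that the rule names are not reported here.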

Additional observations from a re-analysis of the deposited data

How the results depend on the processing

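SLC1A5, SLC43A1 and SLC7A5 kept their direction and their side of the limits under all 15 alternative fits, with log2 fold changes of -5.69 to -5.41, -3.36 to -3.16 and -2.27 to -2.08. SLC38A1 stayed between -0.57 and -0.41, SLC7A8 between -0.36 and -0.22, SLC3A2 between -0.35 and -0.18, and SLC43A2 between 0.32 and 0.52. Values near 0 changed sign: SLC38A2 was 0.09 with upper-quartile scaling, 0.01 with at least 10 counts in every library or with protein-coding genes alone, and -0.09 to 0.09 when libraries were left out in turn, and SLC1A4 was -0.01 to 0.06 in that case. The cause was not tested. Upper-quartile scaling moved the median of all genes by 0.101 and the share of calls that were higher from 54.5% to 60.9%, and it gave 34 higher and 24 lower among the related lists, against 27 and 28. With a fold of at least 2, 5561 genes and 30 list genes were called, against 8425 and 55, and with no fold limit 13074 genes, 124 list genes and 7 of the 9 transporters. Fold limits of 2 and 1.5 called the same number of transporters, 3. With at least 10 counts in every library, 1 other SLC38 gene was called in place of 4. With the longest transcript as length, 4 of 9 genes kept their rank in LNCaP and 5 in LNCaP-enzaR. Deviations of same-numbered libraries correlated at -0.0652, -0.00041 and -0.0507 over all genes tested. Values this small show no pairing across the genes as a whole, and they cannot exclude one that touches some genes. With the replicate block 8212 genes, 3 transporters and 55 list genes were called. Leaving out mitochondrial genes, chosen after seeing the data, changed no transporter's call. The 3 libraries of each line allow no permutation p under 0.10, and protein, transport activity and subunit pairing were not measured.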
